A study of Sus scrofa with 12 samples.

Results

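Pericytes and the smooth muscle cells of larger vessels form the mural layer around endothelial tubes. Endothelial cells secrete PDGF-B, which binds the receptor tyrosine kinase PDGFRB on mural cells and their progenitors and draws them to the vessel wall. Cultured pericytes are usually recognised by a panel of surface and filament proteins, none of which is specific to them, and reprogramming to pluripotency generally silences genes of the somatic cell of origin. The panel examined here comprised 8 marker genes: PDGFRB and PDGFRA (the PDGF receptors), CSPG4 (the proteoglycan NG2), MCAM (the adhesion molecule CD146), RGS5 (a regulator of G-protein signalling), DES and NES (the intermediate filament proteins desmin and nestin) and ANPEP (aminopeptidase N, CD13). They were read from the 24358 genes of each deposited table by gene symbol. That rule found 7 of the 8, and MCAM, whose row carried no symbol, was found by its identifier ENSSSCG00000015116.

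The cells were pig induced pluripotent stem cells made from pericytes (PC-iPS cells), and RNA was sequenced from 12 libraries, 3 in each of 4 groups. WT PC-iPS cells carried no reporter. Knock-in positive cells were PC-iPS cells with tdTomato and a puromycin resistance gene inserted at NANOG, which in the pig has identical target sites on chromosomes 1 and 5. The labels name the other groups only as Activin A and SB431542. Per the study these were knock-in cells in the same medium without LIF, given either the ligand Activin A or the small molecule SB431542, which inhibits the TGF-β/Activin receptors, and the concentrations used for sequencing are not given in the sources used here. Each knock-in line came from an independent transfection, was selected with puromycin and blasticidin, picked as colonies and sorted for tdTomato. Per the study the cultures arose from mixed populations of transfected cells, so that the cells of a line may differ in insertion or be WT. All groups shared the basal culture system (CHIR99021, dimethindene maleate, minocycline and vitamin C) and, before RNA extraction, a 1 h plating step that removes feeder cells, although whether the Activin A and SB431542 cultures for sequencing were kept on feeders is not given in the sources used here. The labels do not say whether the WT libraries came from separate cultures, and the p-values measure the spread between these libraries, some of which may be technical.

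Expression was given as FPKM, fragments scaled by transcript length and by library size. Between 15339 and 15827 genes per library had a value above 0. Read totals are unknown, but the steps between low values put the depth of the WT libraries at 0.563 to 0.637 of the deepest knock-in library, against 0.732 to 1 for knock-in, 0.865 to 0.979 for Activin A and 0.841 to 0.94 for SB431542. Mitochondrial genes took 13.9 to 16.4% of FPKM in WT and 9.43 to 11.5% in the other libraries. NANOG was 17.9 ± 9.02 FPKM (SD, n = 3) in WT, 74.5 ± 24.8 in knock-in, 154 ± 43.0 in Activin A and 16.9 ± 8.89 in SB431542. How reads were assigned between its 2 loci was not examined. Knock-in minus WT was 2.06 on the log2(FPKM + 1) scale (limma adjusted p = 0.0250), with no overlap between libraries, and NANOG was called without WT library 3 but not without any of the other 5 in turn (adjusted p = 0.0541 to 0.0794).

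The marker genes ranged from abundant to scarce, and NES, MCAM, PDGFRB and ANPEP were, in that order, the 4 with the most FPKM in each of the 4 groups, as the plot of levels in the 12 libraries shows. NES had more FPKM than 96.8 to 98.7% of genes in every library. MCAM exceeded 74.5 to 83.2% of genes, and ANPEP 48.4 to 68.0%. PDGFRB exceeded 57.6 to 61.7% of genes in the WT libraries and 71.4 to 83.2% in the other 9. RGS5, CSPG4 and PDGFRA were low in every library, with at most 2.06, 0.250 and 0.431 FPKM, and DES never exceeded 0.724 FPKM. Nestin and CD146 were thus well expressed in these cells and PDGFRB and ANPEP moderately, while CSPG4 and RGS5, often used to define pericytes in tissue, were scarce. The label of the cells as pluripotent was checked against 10 matched pluripotency markers: SOX2, LIN28A, SALL4, DNMT3B and OTX2 were at 13.7 to 185 FPKM as group means of WT and knock-in cells, while ESRRB averaged 1.38 and 3.53 FPKM in these groups, TDGF1 0.234 and 0, TFCP2L1 0 and 0.00714, and ZFP42 was listed at 0 in every library. POU5F1, DPPA4, UTF1 and L1TD1 were not matched and are not analysed here. Of 7 tested, NANOG and LIN28A (2.08, adjusted p = 0.0184) were called higher in knock-in cells. LIN28A was not called without knock-in library 1 (0.0616) or WT library 1 (0.0612), where the list had 0 calls, and without the filter it was the single gene called. The pericytes from which the cells were made were not analysed here.

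**Figure D1:**
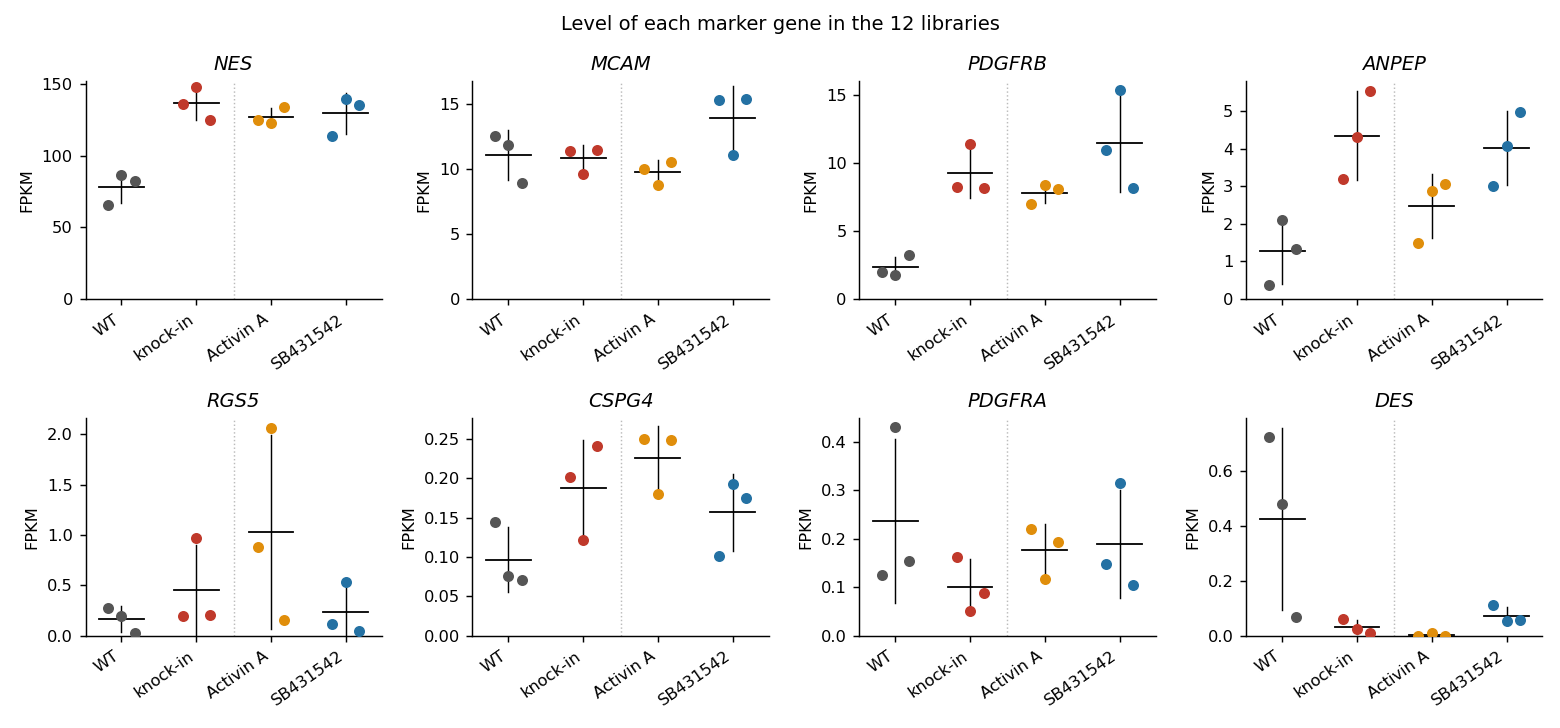
FPKM of each of the 8 marker genes (vertical axes, linear and starting at 0) in WT, knock-in, Activin A and SB431542 libraries. Points are libraries, horizontal bars group means and vertical bars 1 SD (n = 3, cut at 0); the dotted line separates the 2 deposited tables. PDGFRB, NES and ANPEP have their lowest means in WT, and DES is at or near 0 outside WT.

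Knock-in cells had more PDGFRB RNA than WT cells, at 9.28 ± 1.84 against 2.32 ± 0.797 FPKM (SD, n = 3). NES was also higher, at 136 ± 11.5 against 78.1 ± 10.8 FPKM, by less than the change asked of a call. The other 5 markers tested were not called. This first comparison, knock-in against WT, addressed how the NANOG reporter lines differ from the heterogeneous parent culture. The lines had also been transfected with Cas9, selected with drugs and picked as colonies, steps not reported for the WT cells. Such steps and selection for NANOG expression cannot be told apart in this design. Of the 8 marker genes, 7 passed the filter on low values (3 or more of the 6 libraries at 0.1 FPKM or above) and DES did not. A gene was called where limma, run on log2(FPKM + 1) over all 14014 genes that passed, gave a change of at least 1 on the log2 scale with a p, adjusted by Benjamini-Hochberg, not above 0.05. By that rule 1 marker, PDGFRB, was higher in knock-in cells and 0 were lower. Over all genes 2.31% were called in either direction, 1.61% higher and 0.706% lower in knock-in cells. At an unadjusted p under 0.05 there were 3 of the 7 markers and 28.6% of all genes. Differences were positive for 5 of the 7, with a median of 0.28 against -0.001 over all genes tested, and the libraries of the groups did not overlap for 3 of the 7 (35.7% of all genes tested). In bulk RNA, fewer cells of a type and less RNA per cell cannot be told apart, and this holds for every level given here.

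PDGFRB, the receptor for PDGF-B and the marker most tied to pericyte recruitment, showed the largest difference of the 7 markers tested on the log2(FPKM + 1) scale. PDGFRB came just under ANPEP with a pseudocount of 0.01 in place of 1 (2.03 against 2.05) and without WT library 2 (1.52 against 1.56). The gene (ENSSSCG00000022741) is annotated by RefSeq on Sscrofa11.1 as a protein-coding gene on chromosome 2, from 151155753 to 151192818. Its FPKM was 1.99, 1.75 and 3.23 in WT libraries 1, 2 and 3, and 8.24, 11.4 and 8.19 in the knock-in libraries. Every knock-in library thus lay above every WT library. The means were 2.32 ± 0.797 and 9.28 ± 1.84 FPKM, a ratio of 3.99. On the log2(FPKM + 1) scale the difference was 1.64 (SE 0.21, 95% interval 1.14 to 2.14) with a limma adjusted p of 0.0116, higher in 3 of 3 libraries. It was called in each of the 6 fits that left out 1 library, with differences of 1.50 to 1.83. Of the neighbouring genes, HMGXB3 differed by 0.38 (adjusted p = 0.206), while CSF1R, CDX1 and SLC6A7 were below the filter and were not tested.

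PDGFRA, which marks fibroblasts and mesenchymal progenitors more than mature pericytes and binds PDGF-A and PDGF-C, was scarce throughout. The gene (ENSSSCG00000008841; chromosome 8, 40966568 to 41021440) was at 0.125, 0.431 and 0.154 FPKM in WT and at 0.163, 0.0520 and 0.0873 in knock-in cells. The groups overlapped and WT library 2 stood above the rest. The difference was -0.16 (SE 0.11, interval -0.43 to 0.11; limma adjusted p = 0.386), an interval that leaves out a change of 1 on this scale, although adding 1 to such low values compresses any change. FPKM is scaled to length, so that the receptors can be set side by side: PDGFRB exceeded PDGFRA in every library, by ratios of 4.06 to 21.0 in WT and 50.5 to 219 in knock-in libraries, 31.8 to 71.8 with Activin A and 48.6 to 78.3 with SB431542. The lowest ratio was that of WT library 2. These ratios rest on mean PDGFRA levels of 0.101 to 0.237 FPKM, whose counting error is unknown.

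ANPEP, a membrane peptidase found on pericytes, fibroblasts and many epithelia, came close to the threshold. The gene (ENSSSCG00000001849; chromosome 7, 55351081 to 55373856) had 0.373, 2.10 and 1.33 FPKM in WT libraries 1 to 3 and 3.19, 4.31 and 5.54 in knock-in libraries. No knock-in library fell as low as the highest WT library, and WT library 1 was the lowest of the 6. Means of 1.27 ± 0.865 and 4.35 ± 1.17 FPKM gave a ratio of 3.43, and the difference was 1.29 (SE 0.31, interval 0.57 to 2.02). Its limma adjusted p was 0.0501 and ranged from 0.0412 to 0.137 over the alternatives, 4 of which called it. Among these were a filter of 1 FPKM, under which 3.15% of all genes were called, and the replicate block, under which 1.66% were. The block takes the library number as a factor, and these numbers do not pair knock-in with WT libraries. Calls gained or lost with it, here and below, carry no added weight for this comparison.

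NES, the intermediate filament protein of neural progenitors, of developing muscle and of dividing pericytes, was by far the most abundant of the panel. Its FPKM (ENSSSCG00000006474; chromosome 4, 93412660 to 93421899) was 65.8, 86.3 and 82.2 in WT and 136, 148 and 125 in knock-in libraries, without overlap. The rise was a ratio of 1.75 and a difference of 0.80 (SE 0.13, interval 0.51 to 1.10), with a limma adjusted p of 0.0192. It passed the adjusted p but not the size the rule asks. By the adjusted p alone 2 of the 7 markers, PDGFRB and NES, and 7.22% of all genes passed. Without knock-in library 1 or 2 the adjusted p was 0.0760 and 0.0713, and without each of the other 4 it was 0.0241 to 0.0403. The neural progenitor markers, which share nestin's cell type, took no single direction: 1 of 9 tested was called higher (SOX11, 1.23, adjusted p = 0.0105) and 2 lower (PAX6 and DCX, by -2.17 and -1.46), with a median of -0.37. Without knock-in library 1 or 2, or without WT library 1 or 2, 1 gene of that list was called. PAX6 was not called with the replicate block (limma adjusted p = 0.0534), with a pseudocount of 0.01 or without the filter.

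MCAM, an adhesion molecule of mural and endothelial cells, was not called. The gene (chromosome 9, 46506375 to 46522091) had 12.5, 11.8 and 8.93 FPKM in WT and 11.4, 9.59 and 11.5 in knock-in libraries, which interleave. Its difference was -0.02 (SE 0.16, interval -0.39 to 0.34; limma adjusted p = 0.937), so that the interval holds no change larger than 0.39 in either direction.

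CSPG4, a proteoglycan that pericytes display during vessel growth, was at 0.144, 0.0758 and 0.0706 FPKM in WT and at 0.201, 0.122 and 0.241 in knock-in libraries. The groups overlapped. The difference of 0.11 for this gene (ENSSSCG00000001873; chromosome 7, 57949182 to 57988602) had an interval of -0.08 to 0.31 and a limma adjusted p of 0.398. RGS5, which in tissue is among the genes most restricted to mural cells, was at 0.278, 0.192 and 0.0300 FPKM in WT and at 0.192, 0.966 and 0.201 in knock-in libraries. Knock-in library 2 was the single high value, and the difference for RGS5 (ENSSSCG00000037821; chromosome 4, 87286953 to 87340816) was 0.28 (interval -0.19 to 0.75; adjusted p = 0.392). Without that library the difference was 0.04. CSPG4, RGS5 and PDGFRA were thus not called, at levels whose counting error is unknown.

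DES, the muscle filament protein that marks contractile mural cells, was at very low levels in both groups. The gene (ENSSSCG00000020785; chromosome 15, 121428539 to 121435426) had 0.724, 0.481 and 0.0697 FPKM in WT and 0.0621, 0.0242 and 0.0102 in knock-in libraries. Every WT library lay above every knock-in library, WT library 3 only narrowly. The means were 0.425 ± 0.331 and 0.0322 ± 0.0268 FPKM. As DES did not pass the filter it was given an exact two-sided permutation test, whose p of 0.1 is the smallest that 3 against 3 libraries allow. Fitted without the filter its difference was -0.44, with a limma adjusted p of 0.184.

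**Figure D2:**
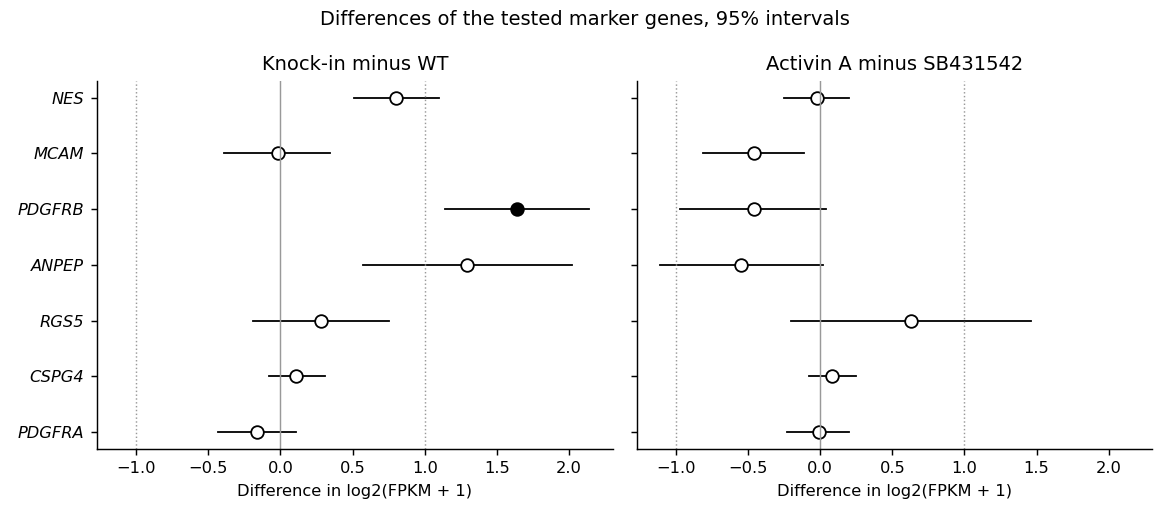
Differences in log2(FPKM + 1) of the 7 marker genes that passed the filter, for knock-in minus WT (left) and Activin A minus SB431542 (right). Points are limma estimates, bars 95% intervals (n = 3 libraries a group), filled points genes called, and dotted lines a change of 1. PDGFRB at 1.64 is the single filled point, and the interval of NES ends at 1.10.

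PDGF signalling needs a ligand as well as a receptor, and the ligands differed among themselves. PDGFB, the ligand that binds PDGFRB most strongly, had 0.226, 0.210 and 0.0995 FPKM in WT and 20.9, 6.84 and 4.14 in knock-in libraries. The knock-in libraries differed among themselves yet all lay far above WT. The difference was 3.03 (SE 0.47, limma adjusted p = 0.0182), and PDGFB was the single gene called of 18 tested in the list of PDGF ligands and receptor partners, whose median was 0.06 with 9 of 18 higher. Without knock-in library 2 or WT library 1 it was not called (adjusted p = 0.05, above the threshold before rounding, and 0.0571) and 0 genes of the list were called, while without WT library 3 there were 2.

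The other ligands were not called. PDGFC, which acts through PDGFRA, averaged 41.8 ± 3.89 FPKM in WT and 24.5 ± 9.04 in knock-in cells (difference -0.81, limma adjusted p = 0.0977). PDGFD, which binds PDGFRB, averaged 4.79 ± 2.10 and 2.04 ± 0.670 FPKM (-0.89, adjusted p = 0.0990). PDGFA, a ligand of PDGFRA, differed by 0.44 (adjusted p = 0.209). The libraries of the groups did not overlap for any of these ligands. The same held for 9 of the 18 genes tested in the list and for 35.7% of all genes tested. The adaptor and effector genes GRB2, SOS1, PLCG1, PTPN11 and CBL, which carry the signal of either receptor, had differences of -0.25 to 0.18. Larger differences were found for other effectors of the list, also without a call: PIK3R1, a regulatory subunit of PI3-kinase, averaged 9.42 ± 2.59 FPKM in WT and 4.27 ± 1.39 in knock-in cells (-0.98, adjusted p = 0.0603, and called lower without WT library 3), and the adaptor SHC1 differed by 0.48 (0.125). Neither overlapped between groups. Knock-in cells thus had more RNA of PDGFB and of its receptor PDGFRB than WT cells, while no call was made for the other genes of the list or for PDGFRA.

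**Figure D3:**
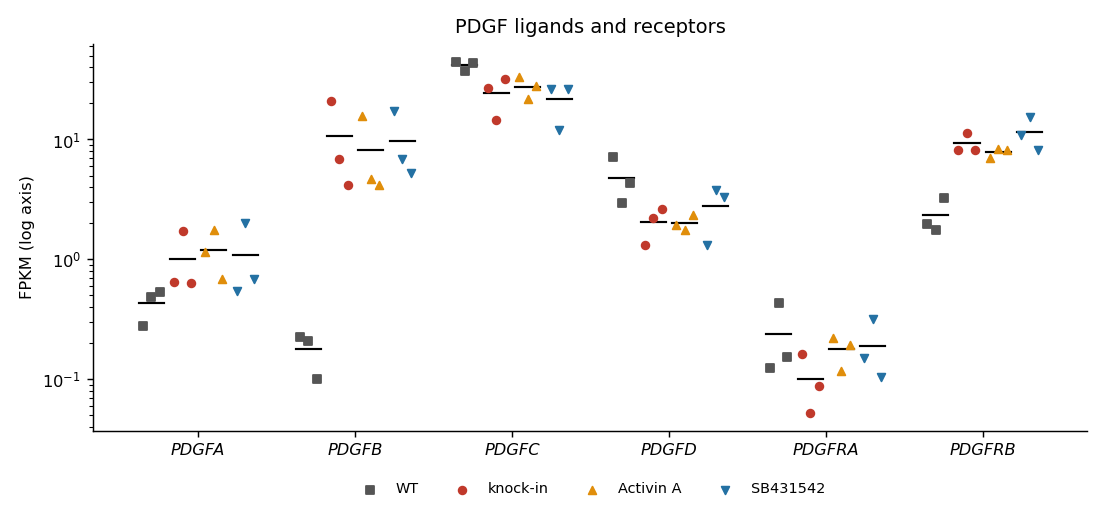
FPKM on a log axis of the 4 PDGF ligands and the 2 PDGF receptors in each library, by group; short bars are group means (n = 3). PDGFB is at or under 0.226 FPKM in the WT libraries and at or above 4.14 in the others, whereas PDGFC and PDGFD have their highest means in WT.

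Other markers were read from lists beside the panel. Of 20 other pericyte markers, 15 were tested, 3 were called higher in knock-in cells and 0 lower, with a median of 0.04. The groups did not overlap for 6 of the 15, against 35.7% of all genes tested. CD248 (endosialin, found on pericytes and activated fibroblasts) averaged 15.1 ± 3.72 FPKM in knock-in and 1.38 ± 0.397 in WT cells (2.75, SE 0.22, limma adjusted p = 0.00205). FOXD1, a transcription factor of the progenitors of kidney pericytes, averaged 7.23 ± 4.34 and 0.361 ± 0.284 FPKM (2.49, SE 0.35, adjusted p = 0.0136). S1PR3, a receptor for sphingosine 1-phosphate, averaged 18.6 ± 5.59 and 5.83 ± 1.65 FPKM (1.51, SE 0.25, adjusted p = 0.0215), and was not called without knock-in library 1 (0.0656) or WT library 2 (0.0502). HEYL, a target of Notch signalling, averaged 1.02 ± 0.155 and 0.123 ± 0.146 FPKM without overlap and passed the adjusted p but not the size (0.85, adjusted p = 0.0155), and was called with TPM and with a pseudocount of 0.1. The largest difference in the other direction was that of ALPL (tissue-nonspecific alkaline phosphatase), at 21.0 ± 16.8 FPKM in knock-in and 76.8 ± 40.9 in WT cells, with overlap (-1.94, adjusted p = 0.0736). ALPL was called lower with the replicate block (0.0367) and without knock-in library 1. EBF1, a transcription factor, averaged 0.469 ± 0.0848 and 1.84 ± 1.66 FPKM, without overlap (-0.80, adjusted p = 0.172). NOTCH3, the Notch receptor of mural cells, was not called, at 15.0 ± 3.16 and 13.5 ± 2.91 FPKM (0.14, adjusted p = 0.665). The ion channel subunits of pericytes, ABCC9 and KCNJ8, differed by 0.36 and 0.04 and were not called. HIGD1B, TBX18, ENPEP, ANGPT1 and GJA4 were below the filter.

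Contractile genes of smooth muscle were called more often than pericyte markers, a difference that was not tested. Of 16 listed, 15 were matched and 10 tested, and 6 of these 10 were called higher in knock-in cells and 0 lower. All 10 had positive differences, with a median of 1.70. TAGLN (transgelin) averaged 403 ± 90.3 FPKM in knock-in and 20.9 ± 5.73 in WT cells (4.21, SE 0.23, limma adjusted p = 0.000664). ACTA2 (smooth muscle α-actin) averaged 13.7 ± 3.31 and 1.39 ± 0.303 FPKM (2.61, SE 0.20, adjusted p = 0.00159), CNN1 (calponin) rose by 2.75 and MYL9 (a myosin light chain) by 2.13. LMOD1 (leiomodin), a gene of contractile smooth muscle, averaged 3.20 ± 1.14 and 0.130 ± 0.0193 FPKM (1.86, SE 0.20, adjusted p = 0.00563). SMTN (smoothelin) averaged 4.70 ± 1.02 and 2.67 ± 0.525 FPKM and was not called (0.63, adjusted p = 0.0843). MYOCD, a coactivator that drives the contractile genes, was listed at 0 in every library, and MYH11, the smooth muscle myosin heavy chain, averaged at most 0.0781 FPKM in any group.

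Markers of other cell types, the share of mitochondrial genes and the relative depth moved with the groups, and their part in the panel's differences was not tested. The 15 contractile genes summed to 89.5 to 141 FPKM in WT libraries, 528 to 693 in knock-in, 467 to 595 in Activin A and 541 to 687 in SB431542 libraries. The 20 mesenchymal and fibroblast markers summed to 257 to 314 FPKM in WT, and to 484 to 554, 464 to 543 and 497 to 583 in the same order, most of it VIM. Of their 14 tested genes 3 were called higher, namely TWIST2 (1.68), DCN (1.49) and TWIST1 (1.42), and 0 lower. TWIST1 was not called with the replicate block (limma adjusted p = 0.0546), nor DCN without the filter. Without knock-in library 2 the count was 0, without knock-in library 1 or WT library 2 it was 1, and without WT library 3 it was 5. Differences were positive for 11 of the 14. Among those not called, the matrix genes FN1 and COL1A2 averaged 25.6 ± 4.32 and 10.6 ± 1.89 FPKM in knock-in cells against 17.5 ± 3.70 and 5.18 ± 1.95 in WT (adjusted p = 0.107 and 0.0572), and the transcription factor PRRX1 2.05 ± 0.633 against 0.704 ± 0.429 (0.0687), each without overlap. The collagen gene COL1A1 was lower in knock-in cells, also without overlap, at 0.622 ± 0.241 against 1.13 ± 0.314 FPKM (-0.39, limma adjusted p = 0.162). S100A4 and SNAI2 were lower too, by -0.13 and -0.16, with overlap. In this list 9 of the 14 tested genes had groups that did not overlap, against 35.7% of all genes tested. FAP, a marker of activated fibroblasts, was listed at 0 in all 12 libraries, and POSTN was at 0 in every knock-in and SB431542 library. The 10 matched endothelial markers summed to only 1.03 to 1.56 FPKM in WT and 1.38 to 1.80 in knock-in libraries (1.22 to 1.57 with Activin A and 1.95 to 2.30 with SB431542), with 0 of 3 tested genes called by limma (1 at an unadjusted p under 0.05). Of the 9 matched striated muscle markers, 2 were tested and 1, the cardiac actin ACTC1, was called higher (2.37, adjusted p = 0.00115), while MYOD1 and TNNT2 were listed at 0 in all WT and knock-in libraries. Of 4 tested primitive endoderm markers limma called 0, with 1 at an unadjusted p under 0.05, the transcription factor GATA6. It averaged 15.7 ± 3.17 FPKM in knock-in and 7.32 ± 1.45 in WT cells, without overlap, and its difference, 1.00 when rounded, was just under the size asked (adjusted p = 0.0289). GATA6 was called higher with TPM, with pseudocounts of 0.1 and 0.01 and without WT library 1.

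**Figure D4:**
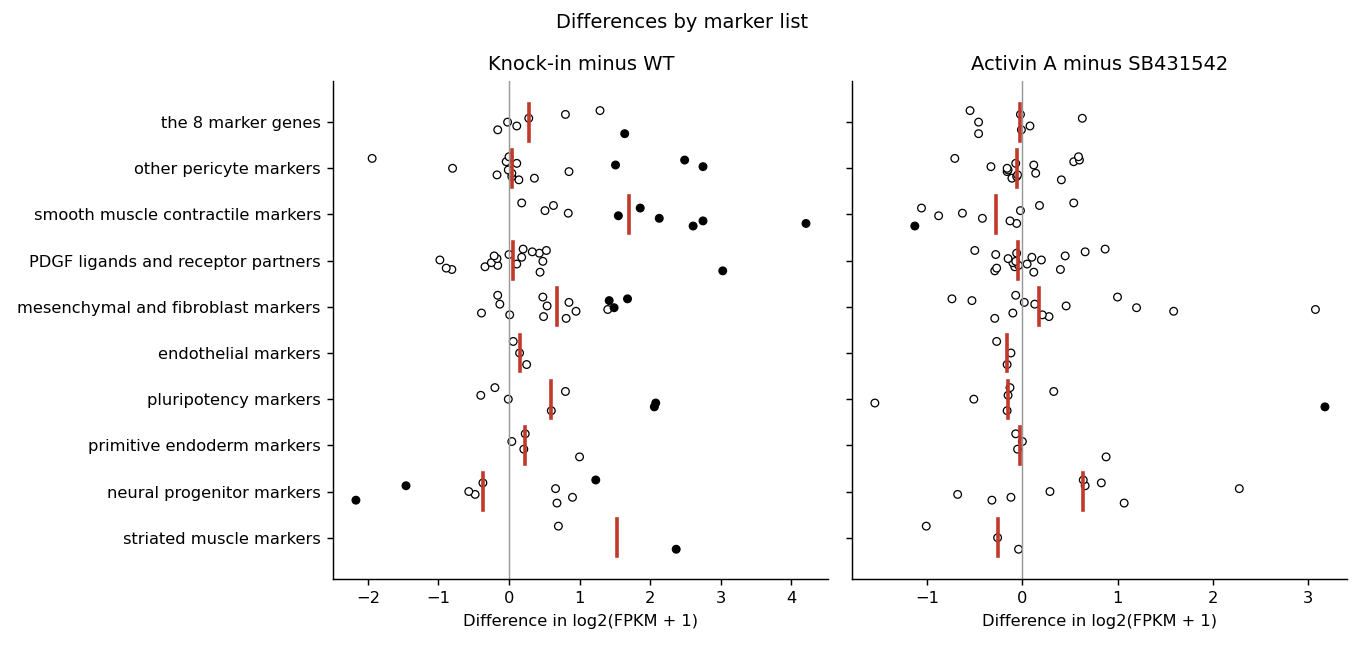
Differences in log2(FPKM + 1) of the tested genes of each marker list, for knock-in minus WT (left) and Activin A minus SB431542 (right). Each point is a gene, filled where called, and red bars are list medians. The contractile genes on the left lie at or above 0.18 with a median of 1.70, while the panel's median is 0.28.

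None of the marker genes was called between Activin A and SB431542, and only MCAM of the 7 tested had groups that did not overlap, at 9.77 ± 0.935 against 13.9 ± 2.45 FPKM. This second comparison addressed what activating or blocking the Activin pathway did to the cells. Again 7 of the 8 marker genes were tested, and 0 were called by limma in either direction, here and under each alternative. The main fit did not use the line number (the number in the label), so differences between lines stayed in its error. Deviations of Activin A and SB431542 libraries of the same number correlated at 0.4 to 0.587. Over all 13999 genes tested 0.0929% were called, 0.0571% higher and 0.0357% lower with Activin A, and 0.707% were called with the line number as a block. At an unadjusted p under 0.05 there was 1 marker, MCAM, and 12.8% of all genes. The median difference of the 7 was -0.02 against -0.004 over all genes.

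MCAM was lower with Activin A than with SB431542 in all 3 line numbers. Its FPKM was 10.0, 8.74 and 10.6 in Activin A libraries 1, 2 and 3 and 15.3, 11.1 and 15.4 in SB431542 libraries. The groups did not overlap, as for 20.0% of all genes, but the highest Activin A library lay just under the lowest SB431542 library. The difference was -0.46 (SE 0.15, interval -0.81 to -0.11), with a limma unadjusted p of 0.0169 and an adjusted p of 0.282, and 0.0608 with the line number as a block. The summed level of the 10 endothelial markers was also lower with Activin A, without overlap (1.22 to 1.57 against 1.95 to 2.30 FPKM), with 0 of its 3 tested genes called by limma, 1 at an unadjusted p under 0.05, and the defining markers CDH5, KDR and VWF averaging at most 0.118 FPKM in either group. Its part in the MCAM difference was not tested.

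PDGFRB and ANPEP were also lower with Activin A in 3 of 3 line numbers, without passing the test. PDGFRB had 6.99, 8.38 and 8.12 FPKM with Activin A and 11.0, 15.3 and 8.17 with SB431542, so that library 3 was nearly equal in both. The difference was -0.46 (SE 0.21, interval -0.97 to 0.04; limma adjusted p = 0.421, and 0.187 with the block). It was -0.25 without SB431542 library 2 and -0.67 without SB431542 library 3. ANPEP had 1.48, 2.88 and 3.05 FPKM with Activin A and 3.02, 4.06 and 4.97 with SB431542, with overlap at the margin. Its difference was -0.55 (SE 0.24, interval -1.11 to 0.02; adjusted p = 0.402, and 0.0648 with the block), and -0.32 without Activin A library 1.

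RGS5 had the opposite direction, higher with Activin A in 3 of 3 line numbers, and was not called. It had 0.885, 2.06 and 0.154 FPKM with Activin A and 0.115, 0.536 and 0.0513 with SB431542. The spread between lines exceeded that between treatments, and the groups overlapped. The difference of 0.63 had an interval of -0.20 to 1.46 and a limma adjusted p of 0.5 (0.131 with the block). Over the alternatives it ranged from 0.28, without Activin A library 2, to 2.06.

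DES was listed at 0 in Activin A libraries 1 and 3 and at 0.00904 FPKM in library 2, against 0.111, 0.0521 and 0.0568 with SB431542. The groups did not overlap (exact two-sided permutation p = 0.1, the smallest possible), at levels whose counting error is unknown. With this gene, 5 of the 8 markers had 1 direction in all 3 line numbers, as had 49.0% of the 13999 genes tested.

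NES, CSPG4 and PDGFRA were not separated by the treatments. NES had 125, 123 and 134 FPKM with Activin A and 113, 139.8 and 136 with SB431542, a difference of -0.02 (interval -0.25 to 0.20). CSPG4 had 0.250, 0.180 and 0.249 FPKM against 0.101, 0.194 and 0.176, and differed by 0.08 (limma adjusted p = 0.645). PDGFRA had 0.220, 0.117 and 0.193 FPKM against 0.149, 0.316 and 0.104, and differed by -0.01 (adjusted p = 0.971). The interval of NES excludes a change of more than 0.25 in either direction.

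Among the companion lists, the contractile gene ACTA2 was lower with Activin A. Its FPKM was 9.28, 7.52 and 8.17 with Activin A and 20.6, 18.7 and 18.9 with SB431542 (difference -1.13, SE 0.10, limma adjusted p = 0.0346). With 1 library left out its adjusted p was 0.0902 to 0.161 and it was not called in any of the 6 fits. It was the single call of 10 contractile genes tested, whose median was -0.28. With the line number as a block 2 were called, the second being LMOD1 (-1.06, adjusted p = 0.235 without the block and 0.0266 with it). The other pericyte markers (15 tested), the PDGF list (18) and the mesenchymal list (14) had 0 calls by limma, with 2, 5 and 7 genes at an unadjusted p under 0.05. The endothelial, primitive endoderm, neural progenitor and striated muscle lists also had 0, with 1, 1, 4 and 1 genes at that level, and of the pluripotency markers NANOG was called (3.18, adjusted p = 0.0424). NANOG was called without SB431542 library 2 but not without any of the other 5 libraries in turn (0.132 to 0.208), nor with a pseudocount of 0.01, a filter of 1 FPKM, no filter or no variance trend. With the block, HES5, a Notch target of neural progenitors, was called higher (2.28, adjusted p = 0.00831 against 0.176 without it) and LIN28A lower (-1.55, 0.015 against 0.273). With the block 2 mesenchymal genes were called, both fibrillar collagens and both higher with Activin A: COL1A2 by 1.59 (adjusted p = 0.0236) and COL3A1 by 3.08 (0.0121). NOTCH3 averaged 17.9 ± 2.96 FPKM with Activin A and 13.1 ± 1.86 with SB431542 (0.41, adjusted p = 0.326). PDGFB, so different between knock-in and WT cells, differed by -0.29 (adjusted p = 0.864).

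Set side by side over the 4 groups, with the caution that the tables were not tested against each other, the order of the group means differed from marker to marker. For PDGFRB the mean was highest with SB431542, then in knock-in, Activin A and WT cells, and the libraries of neighbours in that order did not overlap between Activin A and WT alone. NES ran from knock-in through SB431542 and Activin A to WT, again with a gap only before WT. ANPEP had the same order as NES, with overlap between all neighbours. MCAM ran from SB431542 through WT and knock-in to Activin A with overlap throughout, and the means spanned only 9.77 to 13.9 FPKM. CSPG4 and RGS5 both ran from Activin A through knock-in and SB431542 to WT, with overlap throughout. DES ran from WT through SB431542 and knock-in to Activin A, and PDGFRA from WT through SB431542 and Activin A to knock-in. Per the study the Activin A and SB431542 cells were also knock-in cells. That equal numbers name the same line in these groups is inferred, as the labels give only a treatment and a number. The common distance of the 3 groups from WT is thus not taken as 3 separate observations.

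The same line number gave the highest level in the knock-in, Activin A and SB431542 groups for 4 of the 8 markers, against 38.0% of the 13696 genes tested in both tables. PDGFRB and RGS5 were highest in number 2 of each group. MCAM and ANPEP were highest in number 3, with MCAM lowest in number 2 and ANPEP lowest in number 1. WT libraries did not share this order: PDGFRB was lowest and ANPEP highest in WT library 2. Differences between lines were as wide as those between treatments for RGS5, whose knock-in level in number 2 was 0.966 FPKM against 0.192 and 0.201 in the other two.

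**Figure D5:**
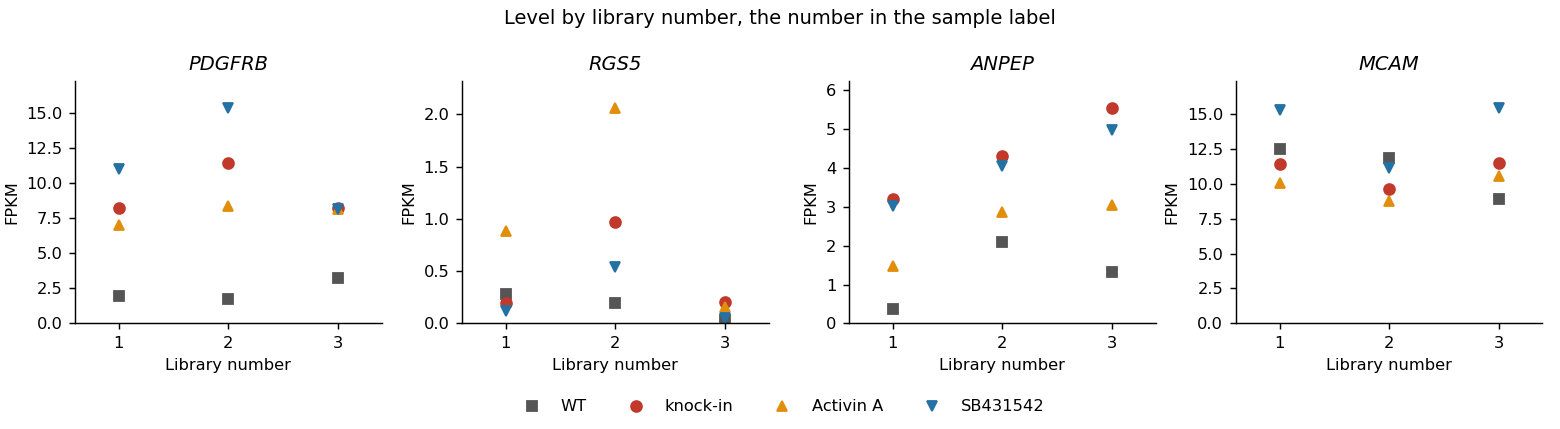
FPKM (vertical axes, starting at 0) of PDGFRB, RGS5, ANPEP and MCAM by the library number in the sample label, with 1 point per library and symbols for the 4 groups. Number 2 is highest for PDGFRB and RGS5 in knock-in, Activin A and SB431542 libraries, and number 3 for ANPEP and MCAM.

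For the markers whose group means spanned at least 1 on the log2(FPKM + 1) scale, the genes with the most similar course over the 12 libraries were sought among 12395 genes with a symbol, as a description. PDGFRB, with a span of 1.90, was closest to AJUBA (a LIM-domain protein of cell contacts) and GLIPR2, each at a root mean square difference of 0.17, and to PHLDA1 at 0.23. AJUBA was at 12.6 to 23.1 FPKM in WT, 48.9 to 67.2 in knock-in, 42.7 to 57.7 in Activin A and 61.1 to 90.3 in SB431542 libraries, the same order of groups as PDGFRB. ANPEP, with a span of 1.29, was closest to NOS1 (neuronal nitric oxide synthase) at 0.26, TMEM47 at 0.27 and TNFRSF19 at 0.28. NOS1 was at 0.345 to 0.721 FPKM in WT and at 1.56 to 3.63 in knock-in libraries. The libraries share lines and tables, so the likeness has no test.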

How the data were processed

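RNA of 12 libraries of pig PC-iPS cells was sequenced from oligo(dT)-selected RNA. After adapter trimming in Trim Galore, the authors mapped reads by HISAT2 2.0.4 on the pig build Ssc11.1 and, with StringTie 1.3.3 and Ensembl annotation, deposited FPKM per gene in 2 tables of 6 libraries (bcl2fastq 2.17.1.14 and featureCounts 1.6.4 are also in the submitters' processing notes). FPKM is relative to library size and gene length, and read totals are unknown, so the counting error is unknown. The steps between low values gave the relative depth.

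Within each table, genes reaching 0.1 FPKM in 3 libraries or more were tested with limma 3.58.1 (variance trend, R 4.3.3) on log2(FPKM + 1), which understates changes of low genes. Called genes had an absolute log2 difference of 1 or more and a p, adjusted by Benjamini-Hochberg over all genes, not above 0.05. Single genes under the filter had an exact permutation test. On simulated data with 200 genes changed by 2 on the log2 scale, 188 were recovered with 6 false calls for knock-in against WT (14014 genes), and 187 with 1 for Activin A against SB431542 (13999 genes). The changed genes were drawn only from those averaging above 3 on the log2(FPKM + 1) scale. ANPEP, RGS5, CSPG4, PDGFRA and DES were below that level, as was PDGFRB over the knock-in and WT libraries. The recovery therefore does not cover them, nor smaller changes.

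Genes named are the 8 markers, up to 4 called genes with the largest change per list and comparison, list genes that check the cells, and the 3 genes of most similar course for markers whose group means span at least 1. Other list genes (the PDGF ligands and effectors, for example) were named after their values were seen. The markers and lists were chosen with earlier results of these data known. A gene of the neural progenitor list is not reported here and was left out of its counts. Symbols were in the tables for 20108 genes, a name table added 866 by identifier, and 3384 had none. Coordinates are RefSeq's for Sscrofa11.1, matched by symbol. Pairing by line number is inferred from the labels and from the study's numbering of its lines. Deviations from group means correlated at 0.4, 0.587 and 0.535 between Activin A and SB431542 libraries of the same number (13999 genes), and an alternative fit took the number as a block. Other alternatives were TPM, median-ratio and quantile scaling, pseudocounts of 0.1 and 0.01, filters of 1 FPKM and none, no variance trend, the adjusted p alone, and each library left out. Plots used matplotlib 3.10.9 (Python 3.11.15). No sequence is shown.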

Additional observations from a re-analysis of the deposited data

How the results depend on the processing

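PDGFRB was called for knock-in against WT under every alternative, with differences of 1.50 to 2.03 and limma adjusted p of 0.00729 to 0.0437. The count of markers called was 1, and 2 with a filter of 1 FPKM, median-ratio scaling or the replicate block, ANPEP being the second, and 2 by the adjusted p alone, NES being the second; leaving out 1 library gave 1 to 2. ANPEP, at 0.0501, had 0.0412, 0.0498 and 0.0499 in those 3 fits and 0.0498 without WT library 2. Over all genes the 324 calls became 538 and 501 with pseudocounts of 0.1 and 0.01, 482 with TPM, 199 without a filter, 1012 by the adjusted p alone, 232 with the replicate block, and 145 to 446 without 1 library. The numbers do not pair knock-in with WT libraries: their deviations correlated at -0.0182, 0.00865 and 0.0936.

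For Activin A against SB431542 the 13 calls over all genes became 8 with a pseudocount of 0.01, 5 without a filter, 5 with a filter of 1 FPKM, 7 without the variance trend, 99 with the replicate block (73 higher, 26 lower) and 0 to 5 without 1 library. The cause of these shifts was not tested. The block changed no call of a marker here.

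Differences near 0 changed sign: MCAM for knock-in against WT (0.01 with TPM, -0.16 to 0.06 without 1 library), and for Activin A against SB431542 PDGFRA (0.00 with a pseudocount of 0.01, -0.06 to 0.06 without 1 library) and NES (-0.11 to 0.04 without 1 library). PDGFRA, CSPG4, RGS5 and DES have no value under the filter of 1 FPKM, and DES has one only without a filter. Scaling moved the median of all genes by at most 0.027. PDGFRA, CSPG4, RGS5 and DES are at low FPKM, and as read totals are unknown the counting error of their values is too.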
